A study of Mus musculus with 4 samples.

Results

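Tacr3, Vegfd and Cped1 are 3 of the 20211 genes listed for all 4 single-nucleus RNA libraries of mouse hippocampus examined here. They were singled out because their levels in CA1 pyramidal nuclei differed between the libraries in an earlier look at the same data, so their CA1 ratios are given as a description. Tacr3 encodes the neurokinin 3 receptor, Vegfd encodes a secreted growth factor of the VEGF family, and Cped1 encodes a protein with a cadherin-like and a PC-esterase domain. Their levels were read in CA1 nuclei, taken as excitatory nuclei with at least 1 UMI (unique transcript molecule) of Fibcd1 or Spink8, and in the other excitatory nuclei. This gave 1286 CA1 and 5289 other excitatory nuclei of 8933 in the wild-type library. The total-labelled library gave 1871 and 13850 of 23720, the astrocyte-labelled library 1874 and 6175 of 10015, and the neuron-labelled library 1343 and 5288 of 8646.

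The series concerns monoacylglycerol lipase (MAGL, gene Mgll), which hydrolyses 2-arachidonoylglycerol, an abundant endocannabinoid of the brain. Nuclei of the mouse hippocampus were cleaned on an iodixanol gradient and sequenced with a 10x multiome kit, of which the RNA counts were used. The 4 genotypes are wild type, a total or global MAGL knockout, an astrocyte-specific MAGL knockout and a neuron-specific MAGL knockout, with 1 library each. The sources used here do not give the allele, the driver that restricts a knockout to its cell type, or the ages, sexes and number of animals behind each library. With 1 library per genotype no difference between genotypes can be tested. All intervals below are 95% intervals for counting error only, and a genotype cannot be told apart from its library.

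CA1 pyramidal neurons are the main output cells of the hippocampus and are not uniform: cells near the surface and deep in the layer, and cells along the dorsal to ventral axis, carry different genes. Tachykinins are short neuropeptides, and the neurokinin 3 receptor answers mainly to neurokinin B, the product of Tac2. Vegfd binds the receptors encoded by Flt4 and, in some species, Kdr, which are best known from lymphatic and blood vessels. The function of Cped1 in neurons is not well described.

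In the GRCm38 build with GENCODE M21 models, Tacr3 lies on the forward strand at chr3:134829007-134934579 with 1 annotated transcript, and 3.56% of its length is exonic. Vegfd lies on the forward strand at chrX:164373378-164402650 with 2 transcripts and 8.23% exonic length. Cped1 lies on the forward strand at chr6:21985916-22256404 with 8 transcripts, 3 of them coding, and 3.06% exonic length. Nuclear RNA holds much intronic sequence, and the sources used here do not say whether introns and strand were used in counting. Cped1 is overlapped on the opposite strand by a long noncoding RNA, Gm26719, and a pseudogene, Gm42573, and without strand their reads cannot be told apart from its own. No annotated gene overlaps Tacr3 or Vegfd.

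The sequence just upstream of each gene is shown because the genes were high in the same small set of nuclei, described further on. Each is taken from the RefSeq promoters of GRCm38.p6, forward strand, 5′ to 3′, and ends before the earliest transcript start in RefSeq or GENCODE. For Cped1 that start is in RefSeq, upstream of the GENCODE start given above, and the bases between those starts were neither printed nor searched. Capitals mark matches to TATAAA, the TATA box, to CAGCTG, a form of E-box, and to CGTCA, a short form of the cAMP response element. All were searched on both strands. The stretches are chr3:134828757-134829006 for Tacr3, chrX:164373272-164373377 for Vegfd and chr6:21985660-21985709 for Cped1.
Tacr3: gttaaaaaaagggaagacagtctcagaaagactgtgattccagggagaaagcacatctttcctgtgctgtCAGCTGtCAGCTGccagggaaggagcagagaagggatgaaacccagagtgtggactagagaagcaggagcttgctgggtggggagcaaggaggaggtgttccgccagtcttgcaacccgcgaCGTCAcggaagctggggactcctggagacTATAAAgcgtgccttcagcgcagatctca
Vegfd: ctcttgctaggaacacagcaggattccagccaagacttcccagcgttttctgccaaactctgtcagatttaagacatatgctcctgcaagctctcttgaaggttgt
Cped1: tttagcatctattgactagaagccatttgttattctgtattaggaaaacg

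The 250 bases before Tacr3 held CAGCTG at 180 and 173 bases before the RefSeq start, CGTCA at 58 and TATAAA at 29. Of 32851 RefSeq promoters cut to the same length, 13.0% held CAGCTG, 17.8% held CGTCA and 12.4% held TATAAA. The shorter stretches of 106 bases for Vegfd and 50 bases for Cped1 held none of the 3 motifs. In promoters cut to those lengths the motifs were found in 5.25% to 5.66% and in 2.22% to 2.60%, respectively. The matches describe letters only, and no motif was shared by the 3 genes.

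The libraries differed in ways the genotype labels do not name. They held 81623644 to 193307038 UMIs. The total-labelled library held 31243 barcodes, against 8945 to 10731 in the others, and had the lowest median depth, 5456 UMIs per barcode against 7448 to 8904. Scrublet called 23.3% of its barcodes doublets, against 2.14% to 5.99% elsewhere, and these were left out. Pairs of libraries shared between 108 and 466 barcode sequences, 1.03% to 4.63% of a library. The total-labelled library held nuclei with Y-linked transcripts but no female CA1-like nuclei, while the others held both sexes. Mgll itself was at 71.6 CPM (UMIs of the gene per 1000000 UMIs of the nuclei) in wild-type CA1 nuclei, and at 50.4, 79.9 and 77.8 CPM in those of the total-, astrocyte- and neuron-labelled libraries. The labels could not be checked from these values, because the sources used here do not give the deleted part of Mgll, so the libraries are called by their labels throughout.

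In CA1 nuclei all 3 genes were sparse and were lowest in the wild-type library. Wild-type nuclei held 50 Tacr3 UMIs, a level of 3.02 CPM. The total-labelled library gave 135 (8.97 CPM), the astrocyte-labelled library 137 (7.48 CPM) and the neuron-labelled library 61 (3.94 CPM). The total- and astrocyte-labelled libraries were high and overlapped within counting error, and so did the neuron-labelled and wild-type libraries. Relative to wild type the levels were 2.97-fold, 2.48-fold and 1.31-fold, with a log2 ratio of 1.57 (1.09 to 2.07) for the total-, 1.31 (0.83 to 1.81) for the astrocyte- and 0.39 (-0.18 to 0.96) for the neuron-labelled library.

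For Vegfd the wild-type CA1 nuclei held 79 UMIs (4.76 CPM), those of the total-labelled library 179 (11.9 CPM), of the astrocyte-labelled library 157 (8.57 CPM) and of the neuron-labelled library 104 (6.72 CPM). Its log2 ratios, in that order, were 1.32 (0.93 to 1.72), 0.85 (0.45 to 1.26) and 0.50 (0.06 to 0.94). The total-labelled library was above the astrocyte-labelled one, whose log2 ratio to it was -0.47 (-0.79 to -0.15), while the neuron- and astrocyte-labelled libraries did not differ beyond counting error. Cped1 was at 5.73 CPM (95 UMIs), 11.2 (168 UMIs), 8.85 (162 UMIs) and 7.63 (118 UMIs) in the same order of libraries. Its log2 ratios were 0.96 (0.59 to 1.34), 0.63 (0.25 to 1.01) and 0.41 (0.01 to 0.82), in the same order of levels, with the neuron- and astrocyte-labelled libraries again not apart beyond counting error.

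The gated nuclei were not of the same make-up in every library. Nuclei in the CA1-like clusters were 65.2%, 65.7%, 70.0% and 67.5% of them in the wild-type, total-, astrocyte- and neuron-labelled libraries, and nuclei in dentate granule-like clusters 10.1%, 4.70%, 4.91% and 7.22%. The 7 dentate granule markers summed to 329, 175, 193 and 254 CPM, and each of the 7 was highest in wild type, among them Prox1, at 25.5, 15.1, 17.7 and 18.7 CPM. CA3-like clusters held 18 of the 50 wild-type Tacr3 UMIs. In gated nuclei of the CA1-like clusters alone the ratios were as large or larger. The log2 ratios there were 2.19, 1.83 and 0.93 for Tacr3, 1.45, 1.21 and 0.75 for Vegfd, and 1.06, 0.83 and 0.48 for Cped1.

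**Figure D1:**
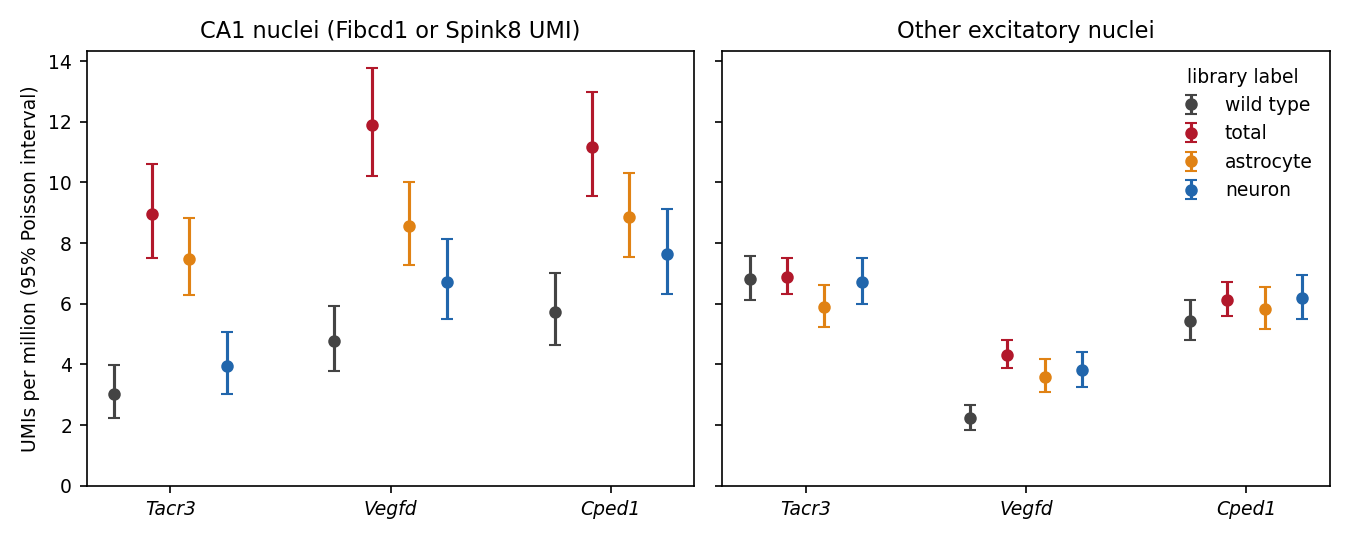
Level of Tacr3, Vegfd and Cped1 (CPM, with 95% counting intervals) in each of the 4 libraries, in CA1 nuclei and in other excitatory nuclei. In CA1 the wild-type library is lowest for each gene (3.02, 4.76 and 5.73 CPM) and the total-labelled library highest (8.97, 11.9 and 11.2 CPM).

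The background for these ratios was read over all genes of CA1 nuclei. Of 13460 genes with at least 100 UMIs, 0.565% were at least 2-fold above wild type in the total-labelled library, 0.23% in the astrocyte-labelled library and 0.305% in the neuron-labelled library. Tacr3 was past 2-fold in the total- and astrocyte-labelled libraries, as 18 genes were (0.134%), and Vegfd in the total-labelled library alone. Cped1 was past 2-fold in none. At least 2-fold below wild type were 1.21%, 0.394% and 0.587% of the genes. Being above wild type in all 3 other libraries was common, since 22% of the genes were. By ratio Tacr3 ranked 21, 14 and 720 of 13460 in the total-, astrocyte- and neuron-labelled libraries, Vegfd 37, 56 and 403, and Cped1 97, 186 and 632. The genes were chosen on these ratios, so nothing is read from their ranks, and the 3 comparisons share the wild-type library.

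The other excitatory nuclei differed from CA1 in Tacr3 and Cped1. Tacr3 was at 6.81 CPM in wild type and at 6.90, 5.89 and 6.72 CPM in the total-, astrocyte- and neuron-labelled libraries, all within counting error of wild type. Cped1 was at 5.44, 6.14, 5.83 and 6.20 CPM, likewise within counting error. Vegfd was lowest in wild type here as well, at 2.22 CPM against 4.32, 3.59 and 3.81. Its log2 ratios were 0.96 (0.65 to 1.27), 0.69 (0.34 to 1.04) and 0.78 (0.43 to 1.13). In the astrocyte-labelled library the ratio fell within counting error in clusters that were not CA1-like (0.25, -0.098 to 0.60) and after thinning to 2000 UMIs (0.24, -0.58 to 1.08). After thinning, that of the neuron-labelled library did too (0.61, -0.19 to 1.44). At least 2-fold above wild type in these nuclei were 0.463%, 0.385% and 0.283% of 16618 genes, and 0.15% in both the total- and astrocyte-labelled libraries. None of the 3 genes was among them. Vegfd and Cped1 were above wild type in all 3 other libraries, as were 20% of the genes. At least 2-fold below were 1.57%, 1.04% and 0.722%.

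Each gene had its own order of levels over the 29 excitatory clusters, with UMIs summed over libraries. Only Vegfd then had a CA1-like cluster as its highest, and in the wild-type library alone no gene did. Tacr3 was highest in an unnamed cluster of 744 nuclei that had Tacr3 itself as its leading gene. There it was at 121 CPM in wild type and 109, 126 and 93.7 CPM in the total-, astrocyte- and neuron-labelled libraries. No nucleus of that cluster carried a CA1 gate gene, and its level did not follow the order of libraries seen in CA1. Next were unnamed clusters led by Atp10b and Dsc3 (26.2 CPM), by Cpa6 and Lef1 (15.9 CPM), by Cdc14a and Wfs1 (13.7 CPM) and by Gm6602 (12.4 CPM), and then a CA1-like cluster of 2446 nuclei (11.5 CPM).

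That CA1-like cluster, with Tnni3k, Fibcd1, Ndrg1 and Dcn among its leading genes, is called the Dcn cluster here, and the Unc5d nuclei described further on belong to it. With UMIs summed over libraries it was the excitatory cluster with most Vegfd, at 19.5 CPM, its Unc5d nuclei (81.4 CPM) included. Next were an unnamed cluster led by C1qtnf7 and Dcn (15.8 CPM) and a subicular-like cluster (11.3 CPM). The latter was led by Gm42707 and Gm6260, followed by the subicular markers Teddm3 and Dlk1. The Dcn cluster was not the highest in wild type alone, where it was at 7.46 CPM of Vegfd. Its place in the order without the Unc5d nuclei is not given here. The other, larger CA1-like cluster of 4009 nuclei carried little of any of the 3 genes. Over all libraries Cped1 was highest in deep cortical-like clusters (22 and 21.4 CPM), followed by the Dcn cluster (15.8 CPM). In wild type alone the Dcn cluster was at 9.37 CPM of Cped1. Clusters led by Csf2rb2 (20.2 CPM) and Gm42707 (18.8 CPM) were then among those above it. Outside excitatory nuclei, an unnamed cluster led by Ttr, the choroid plexus gene, held 230 CPM of Cped1 and 23.3 CPM of Vegfd. An inhibitory-like cluster led by Sst held 17.1 CPM of Cped1. Dentate granule-like nuclei, which gave the background, had a UMI of Tacr3, Vegfd and Cped1 in 0.0985%, 0.443% and 0.906% of nuclei at a median depth of 5611 UMIs. Vegfd was lowest in wild type there too, at 0.36 CPM against 0.73, 0.71 and 1.18 in the total-, astrocyte- and neuron-labelled libraries. Of these only the neuron-labelled log2 ratio was beyond counting error (1.72, 0.29 to 3.36), on 16 UMIs against 6.

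**Figure D2:**
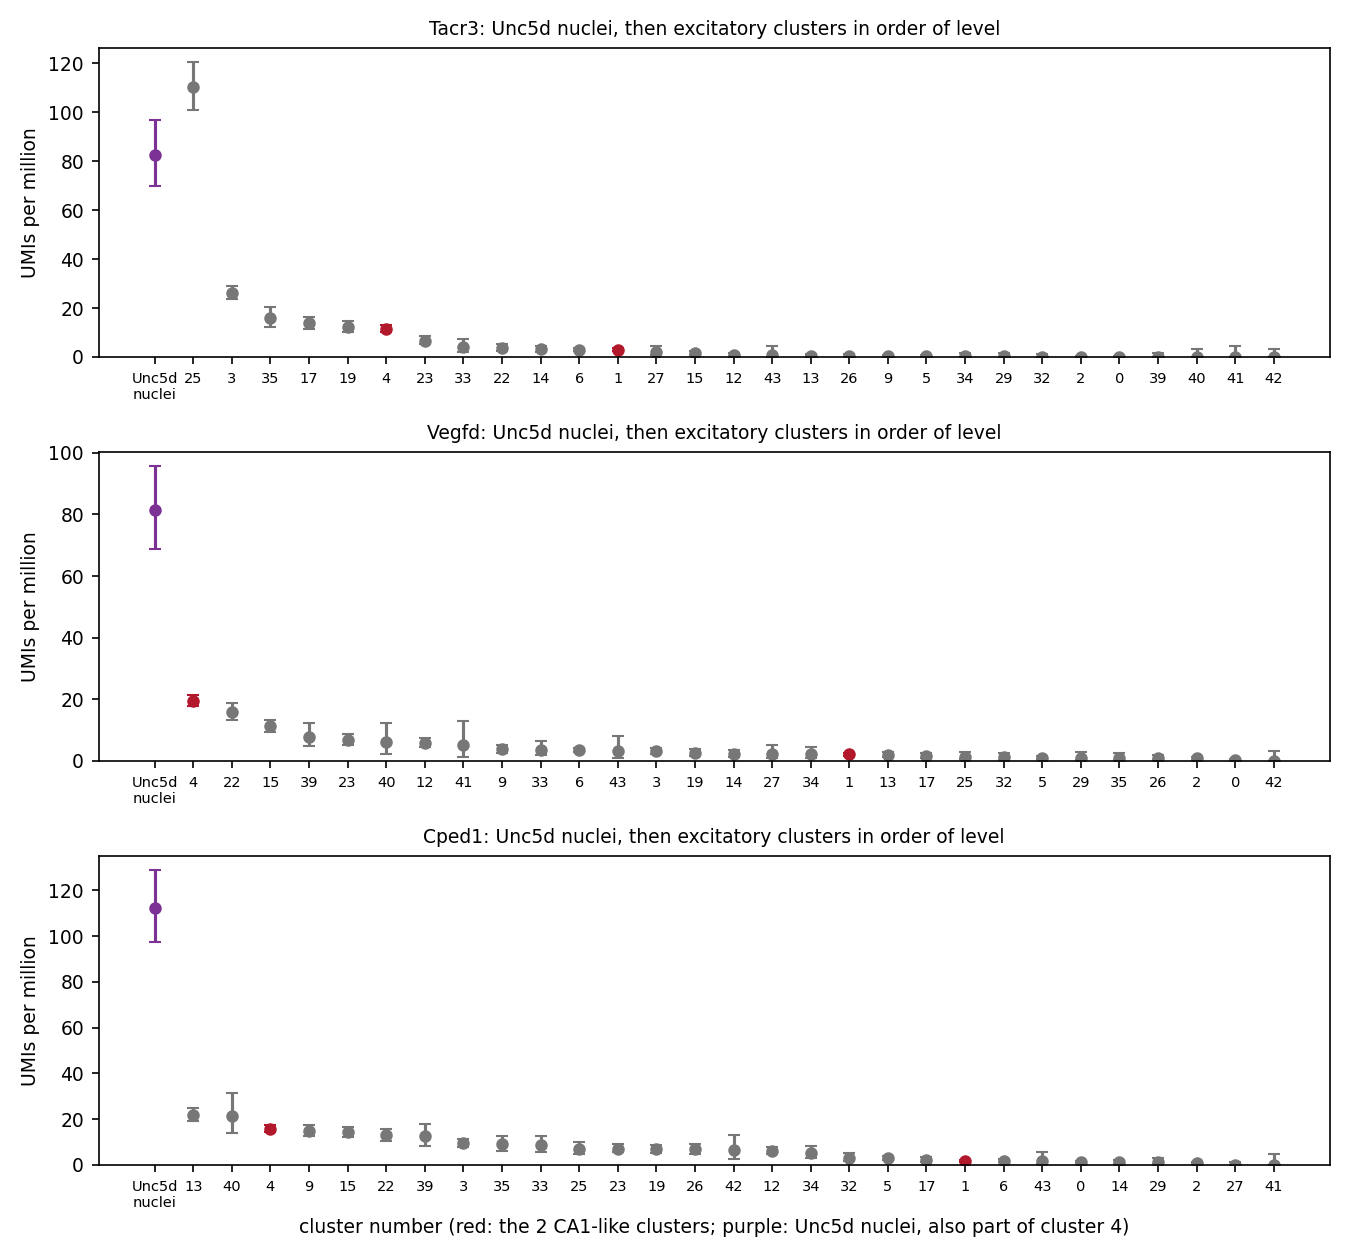
Level of each gene (CPM over all libraries, with 95% Poisson intervals) in the Unc5d nuclei (purple) and in the 29 excitatory clusters by number, in order of level, with the CA1-like clusters 1 (the larger) and 4 (the Dcn cluster) in red. Tacr3 is highest in cluster 25 (110 CPM), and in the Unc5d nuclei the genes reach 82.5, 81.4 and 112 CPM.

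To ask whether few nuclei of another kind carried the CA1 differences, the CA1-like clusters were clustered again, a step added after the data had been seen. The 3 genes and Mgll were left out of the genes used. One sub-cluster of 228 nuclei stood apart, with Unc5d, Gpc3, Bace2, Zfp804b and Efna5 as its leading genes, and these are called Unc5d nuclei here. Unc5d, a netrin receptor, was at 2019 CPM in them and at 17.8 CPM in the other CA1-like nuclei. At a lower and a higher resolution 225 and 226 of them fell together again.

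The Unc5d nuclei carried 2 of the CA1 markers at no lower level than the other CA1-like nuclei and the other 6 at a lower one. The 8 CA1 markers summed to 610 CPM, against 1544 CPM in the other CA1-like nuclei, and 6 of the 8 were at least 2-fold lower. Of all 12907 genes with at least 100 UMIs in the CA1-like nuclei, 4.9% were at least 2-fold lower. The gate gene Fibcd1 was at 114 CPM against 69.8 and Mpped1 at 233 against 195, while Man1a was at 180 against 824, Spink8 was at 17.4 against 77.3, Wfs1 at 5.97 against 45.4, and Pou3f1 at 2.17 against 46.2. Deep cortical markers summed to 2189 CPM against 592, with 9 of 13 at least 2-fold higher, as were 8.45% of all 12907 genes. Most of that was Hs3st4, at 1706 CPM against 374, and Sulf1 was at 79.3 against 8.47. Upper cortical markers summed to 194 CPM against 42.4, with Rorb at 59.2 against 2.44. Inhibitory markers summed to 43.4 CPM against 9.33. Slc17a7, the vesicular glutamate transporter, was near its level in the other CA1-like nuclei, at 238 CPM against 277. The 7 excitatory markers together summed to 831 CPM against 1663, with 3 at least 2-fold lower and 0 at least 2-fold higher. Subicular markers summed to 204 CPM against 299, with 2 of 7 at least 2-fold higher and 1 at least 2-fold lower. These nuclei were therefore given no cell type name, and the part of mixed nuclei in them was not tested. Of the nuclei called doublets that fell nearest the CA1-like clusters, 0 of 68, 58 of 721, 6 of 133 and 0 of 34 fell nearest the Unc5d nuclei in the wild-type, total-, astrocyte- and neuron-labelled libraries.

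All 3 genes were high in the Unc5d nuclei. Over all libraries Tacr3 was at 82.5 CPM, Vegfd at 81.4 CPM and Cped1 at 112 CPM, against 4.19, 7.30 and 4.42 CPM in the other CA1-like nuclei. In the rest of the Dcn cluster the highest level in any library was 7.22, 17.7 and 9.06 CPM, respectively. A UMI of Tacr3 was found in 36.0% of the Unc5d nuclei, of Vegfd in 43.9% and of Cped1 in 39.9%. These nuclei were set apart by other genes of the same nuclei. The sub-cluster was singled out after its levels of the 3 genes had been seen, and Cped1 is among its leading genes. Its levels, and the parts of the CA1 differences that it carried, are therefore a description.

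By library, the Unc5d nuclei held 3 Tacr3 UMIs in wild type (74.5 CPM), 84 in the total- (92.1 CPM), 58 in the astrocyte- (89.0 CPM) and 7 in the neuron-labelled library (29.4 CPM). Vegfd was at 83.3, 93.6 and 54.6 CPM in the total-, astrocyte- and neuron-labelled libraries, and no UMI was seen in the 5 wild-type nuclei, where a count of 0 has an exact Poisson interval up to 91.6 CPM. Cped1 was at 49.7 CPM in wild type (2 UMIs) and at 91.0, 130 and 156 CPM in the others. The wild-type values rest on 5 nuclei, too few to compare. Tacr3 of the neuron-labelled library was below the total- and astrocyte-labelled ones, at log2 ratios of -1.65 (-3.00 to -0.54) and -1.60 (-2.97 to -0.46). Cped1 of the astrocyte- and neuron-labelled libraries was above the total-labelled one, at 0.52 (0.065 to 0.97) and 0.77 (0.17 to 1.35). For Vegfd these libraries did not differ beyond counting error. In the neuron-labelled library 1 nucleus held 10 of the 37 Cped1 UMIs.

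The libraries also differed in how many such nuclei they held. Of the CA1-like nuclei, 5 of 1055 in wild type were Unc5d nuclei (0.474%, exact 95% interval 0.154% to 1.10%). The counts were 127 of 2192 in the total-labelled library (5.79%, 4.85% to 6.86%), 69 of 1945 in the astrocyte-labelled library (3.55%, 2.77% to 4.47%) and 27 of 1263 in the neuron-labelled library (2.14%, 1.41% to 3.10%). Among the gated CA1 nuclei they were 2, 60, 49 and 17, or 0.156%, 3.21%, 2.61% and 1.27%. The wild-type share was lowest and its interval overlapped none of the others. These shares compare single dissections and depend on where the sub-cluster ends. Gated nuclei with at least 3 Unc5d UMIs and at least 1 Gpc3 UMI, a count added after seeing the data, numbered 12, 54, 40 and 11, or 0.933% (0.483% to 1.62%), 2.89% (2.18% to 3.75%), 2.13% (1.53% to 2.90%) and 0.819% (0.410% to 1.46%). Of these, 1, 27, 27 and 4 were in the sub-cluster. By that count the neuron-labelled library was not above wild type, the astrocyte-labelled interval overlapped that of wild type, and the total-labelled one did not. The total-labelled library, with the most doublet calls and no female CA1-like nuclei, also held the most Unc5d nuclei. The part of doublets and sex in the shares was not tested. Among nuclei whose sex was read, they numbered 0 male and 4 female in wild type, 113 and 0 in the total-labelled library, 22 and 36 in the astrocyte-labelled library and 16 and 10 in the neuron-labelled library.

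**Figure D3:**
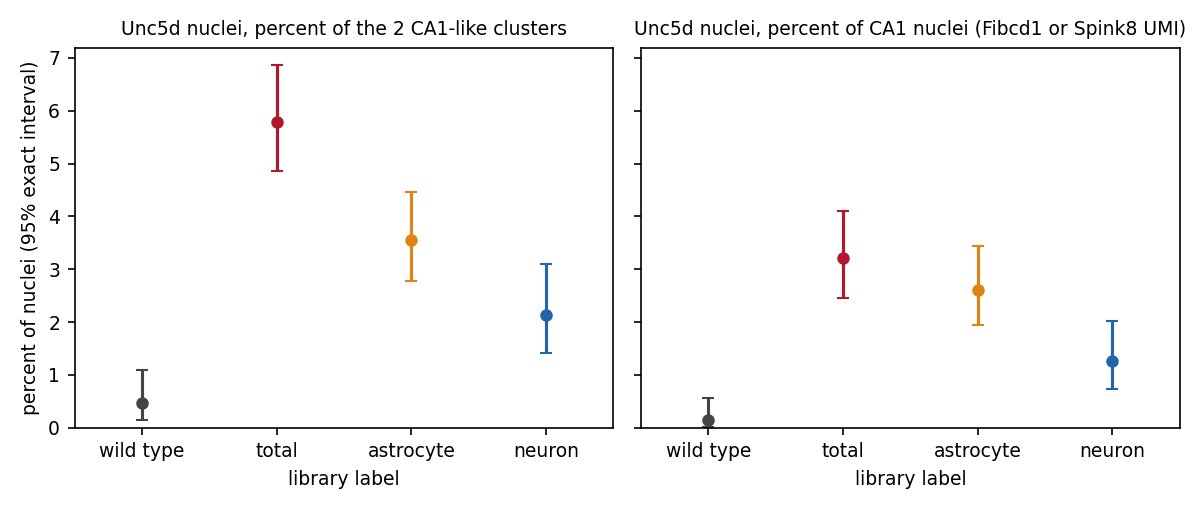
Share of CA1-like nuclei and of gated CA1 nuclei (percent, with exact 95% intervals) that fell in the Unc5d sub-cluster, by library. The wild-type library is lowest (0.474% of CA1-like nuclei) and the total-labelled library highest (5.79%).

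The part of the CA1 differences from wild type that the Unc5d nuclei held varied between genes and libraries. For Tacr3 the differences were 5.95, 4.47 and 0.929 CPM in the total-, astrocyte- and neuron-labelled libraries, and the Unc5d nuclei, at most 3.21% of the gated nuclei, carried 66.0%, 56.0% and 14.9% of them. For Vegfd the differences were 7.13, 3.81 and 1.96 CPM, of which they carried 42.9%, 64.5% and 29.7%. For Cped1 the differences were 5.43, 3.12 and 1.90 CPM, of which they carried 69.9%, 99.5% and 95.7%. These percentages also depend on the boundary of the sub-cluster. The nuclei counted by their Unc5d and Gpc3 UMIs carried 49.5%, 30.1% and -26.0% of the Tacr3 differences, 33.6%, 50.2% and 19.8% of those of Vegfd, and 56.5%, 76.7% and 10.7% of those of Cped1. In the neuron-labelled library these nuclei held 5 of the 118 Cped1 UMIs, against 30 in the Unc5d nuclei, so there the share of Cped1 rests on the sub-cluster.

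Other clusters added to the differences or offset them. For Cped1 in the neuron-labelled library the rest of the Dcn cluster made up -27.8%, the Gm42707 subicular-like cluster -26.5%, the C1qtnf7 cluster 14.3% and clusters not named here 25.0%. In the total- and astrocyte-labelled libraries the C1qtnf7 cluster made up 21.1% and -2.30% of the Cped1 difference. In the total-labelled library a cluster led by Gm13986 and Otof, whose nuclei came mostly from that library (337 of 404), added 9.78%. Of the Vegfd differences the C1qtnf7 cluster made up 15.3%, -5.05% and 17.6% in the total-, astrocyte- and neuron-labelled libraries.

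**Figure D4:**
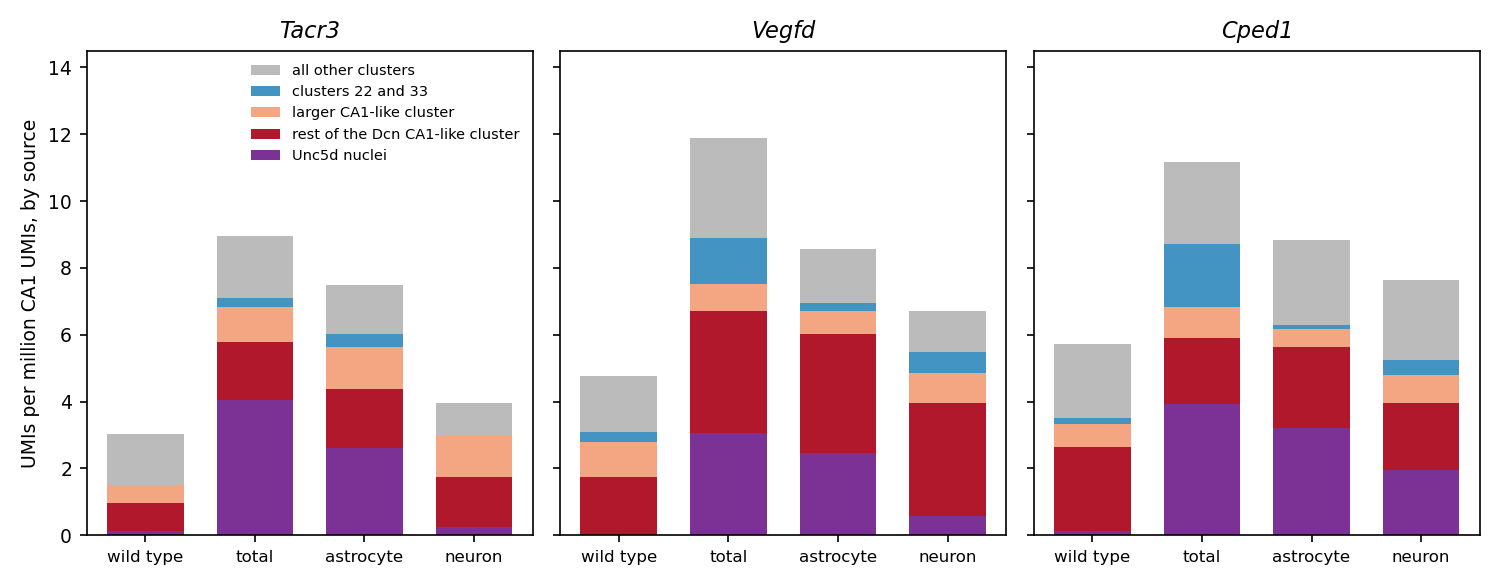
CA1 level of each gene in each library (CPM, full bar), split into the UMIs held by the Unc5d nuclei, the rest of the Dcn cluster, the larger CA1-like cluster, the clusters led by C1qtnf7 (22) and Gm13986 (33), and all other clusters. The Unc5d part, drawn by sub-cluster, is small in wild type and carries 69.9%, 99.5% and 95.7% of the Cped1 difference in the total-, astrocyte- and neuron-labelled libraries, or 56.5%, 76.7% and 10.7% where such nuclei are counted by Unc5d and Gpc3 UMIs.

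With the Unc5d nuclei left out, Cped1 was at 5.61, 7.47, 5.78 and 5.75 CPM in the wild-type, total-, astrocyte- and neuron-labelled libraries. Its log2 ratios were then 0.41, 0.042 and 0.034. Tacr3 was at 2.90, 5.07, 4.99 and 3.72 CPM, and its log2 ratios fell from 1.57, 1.31 and 0.39 to 0.81, 0.78 and 0.36. Vegfd was at 4.77, 9.12, 6.28 and 6.21 CPM, with log2 ratios of 0.93 (0.52 to 1.36), 0.40 (-0.031 to 0.83) and 0.38 (-0.066 to 0.83). Thus the Vegfd ratios of the astrocyte- and neuron-labelled libraries were then within counting error, as was Tacr3 of the neuron-labelled library (-0.22 to 0.95). None of the 3 genes was then past 2-fold. Of 13421 genes, 0.477%, 0.164% and 0.253% were at least 2-fold above wild type in these nuclei, 0.082% in both the total- and astrocyte-labelled libraries, and 1.25%, 0.387% and 0.589% at least 2-fold below. The level of each of the 3 genes was still above wild type in every other library, as for 21.4% of the genes. For Cped1 this lay within counting error in each library, with intervals of -0.00039 to 0.83, -0.38 to 0.46 and -0.40 to 0.47. In the CA1-like clusters alone, without the Unc5d nuclei, the sign turned, to -0.22 (-0.75 to 0.32), -0.18 and -0.23, again within counting error.

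**Figure D5:**
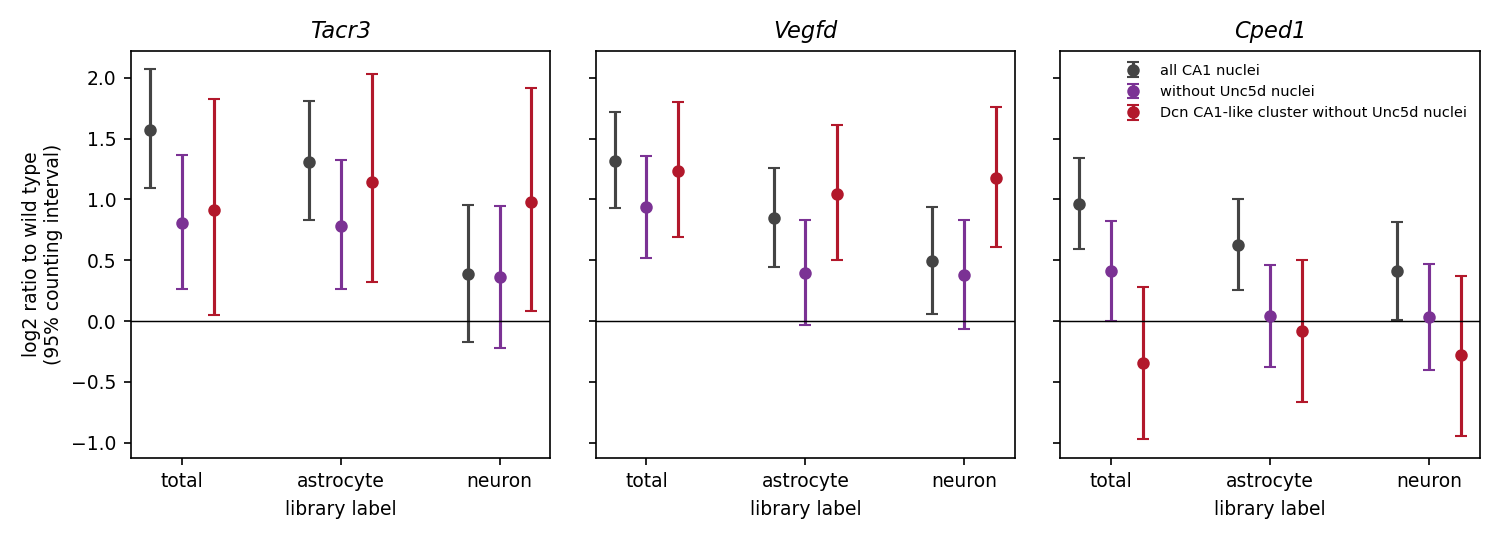
Log2 ratio to wild type in CA1 nuclei for each gene and library, with 95% counting intervals. Shown are all gated CA1 nuclei, these without the Unc5d nuclei, and all nuclei of the Dcn cluster, gated or not, without the Unc5d nuclei. Without the Unc5d nuclei the Cped1 ratios of the astrocyte- and neuron-labelled libraries lie near 0 (0.042 and 0.034), while the Vegfd ratios in the Dcn cluster are 1.23, 1.04 and 1.17.

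The rest of the Dcn cluster carried a further 26.7%, 47.3% and 82.3% of the Vegfd difference in the total-, astrocyte- and neuron-labelled libraries. Of the Tacr3 difference it carried 14.8% in the total- and 20.2% in the astrocyte-labelled library, and the larger CA1-like cluster 8.74% and 16.0%. In the neuron-labelled library the Tacr3 difference was within counting error. The Dcn cluster made up 69.2% of it and the larger cluster 73.8%, against -40.3% in CA3-like and -17.6% in other clusters. The levels that follow are over all nuclei of a cluster, gated or not, unless stated, and without the Unc5d nuclei. In the Dcn cluster Vegfd was at 7.52 CPM in wild type and at 17.7, 15.5 and 17 CPM in the total-, astrocyte- and neuron-labelled libraries. The log2 ratios were 1.23 (0.69 to 1.80), 1.04 (0.50 to 1.61) and 1.17 (0.61 to 1.76). In its gated nuclei alone Vegfd was at 7.10, 15.2, 14.2 and 14.1 CPM in the same order of libraries, wild type first. In the larger CA1-like cluster Vegfd was at 2.51, 2.08, 2.04 and 1.90 CPM, with wild type not below the others. Tacr3 in the Dcn cluster was at 3.28, 6.16, 7.22 and 6.46 CPM, log2 ratios of 0.91, 1.14 and 0.98, and at 2.09, 3.18, 3.76 and 2.67 CPM in the larger cluster. Cped1 in the Dcn cluster was at 9.06 CPM in wild type and 7.13, 8.55 and 7.47 CPM in the others, all within counting error of wild type, with log2 ratios of -0.35 (-0.97 to 0.28), -0.084 (-0.66 to 0.50) and -0.28 (-0.94 to 0.37).

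Within the CA1-like clusters the remaining Vegfd and Tacr3 peaked in different sub-clusters, though Vegfd was also found in those where Tacr3 was highest. Vegfd was highest in one led by 9630002D21Rik, Col5a2 and Gpc6, at 24.0, 35.7, 35.0 and 39.0 CPM in the wild-type, total-, astrocyte- and neuron-labelled libraries. In one led by Pde7b it was at 4.30, 12.6, 11.9 and 26.2 CPM. Tacr3 was highest in one led by Gm45323 and Col23a1, at 15.5, 22.2, 24.1 and 22.1 CPM, and in one led by Oprk1, at 16.7, 18.5, 24.7 and 23.3 CPM. Vegfd was at 9.29, 10.4, 5.48 and 11.05 CPM in the Gm45323 sub-cluster and at 1.29, 12.96, 4.41 and 5.18 CPM in the Oprk1 sub-cluster. For the gene each of these 4 sub-clusters was named for, wild type was the lowest library, but its interval overlapped others: Tacr3 in the Oprk1 sub-cluster was at 16.7 CPM (8.9 to 28.6) in wild type and 18.5 CPM (11.3 to 28.6) in the total-labelled library. Over the 13 sub-clusters other than the Unc5d nuclei, wild type was below all 3 other libraries in 5 for Tacr3, in 5 for Vegfd and in 1 for Cped1, and above all 3 in 0, 1 and 2. In a sub-cluster led by Gm44593 and Epha3, Vegfd was highest in wild type, at 4.61, 0.76, 1.48 and 0 CPM. Cped1 in the 9630002D21Rik sub-cluster was also highest in wild type, at 22.03, 11.9, 13.1 and 14.0 CPM.

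The other excitatory nuclei also held some Unc5d nuclei, since the gate missed those with no Fibcd1 or Spink8 UMI. For Vegfd, where these nuclei differed between libraries, the ungated Unc5d nuclei carried 17.9%, 24.3% and 5.41% of the difference in the total-, astrocyte- and neuron-labelled libraries. Ungated nuclei of the CA1-like clusters carried a further 25.0%, 54.3% and 31.2%, and the Gm42707 subicular-like cluster 15.7%, 23.3% and 15.5%.

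Nuclei with more than 1 of the 3 genes were found mostly in the libraries with many Unc5d nuclei. A UMI of at least 2 of them was seen in 16, 63, 52 and 18 gated nuclei of the wild-type, total-, astrocyte- and neuron-labelled libraries. These were 1.24%, 3.37%, 2.77% and 1.34% of the gated nuclei. With the Unc5d nuclei left out they were 15, 33, 24 and 13, or 1.17%, 1.82%, 1.32% and 0.98%. All 3 genes were seen in 0, 8, 10 and 0 gated nuclei, each of them an Unc5d nucleus. Gated nuclei positive for Tacr3 numbered 39, 92, 88 and 44, of which 1, 30, 27 and 2 were Unc5d nuclei. For Vegfd they numbered 65, 140, 111 and 79, with 0, 31, 26 and 7 Unc5d nuclei, and for Cped1 58, 110, 108 and 74, with 1, 27, 30 and 9. The 5 nuclei with most UMIs of a gene held between 10.1% and 22.9% of its CA1 UMIs. At least 50% of the Tacr3 UMIs lay in 14, 25, 24 and 14 gated nuclei, in the same order of libraries. For Vegfd they lay in 26, 51, 33 and 27 nuclei, and for Cped1 in 16, 31, 32 and 17.

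The share of CA1 nuclei with a UMI was lowest in wild type for each gene, although its nuclei were the deepest. Tacr3 was detected in 3.03%, 4.92%, 4.70% and 3.28% of gated nuclei in the wild-type, total-, astrocyte- and neuron-labelled libraries, at median depths of 12012.5, 7440, 8819 and 10576 UMIs. Thinned to 2000 UMIs per nucleus, the shares were 0.468%, 2.10%, 1.39% and 0.823%. Vegfd was detected in 5.05%, 7.48%, 5.92% and 5.88%, and in 0.936%, 2.43%, 1.98% and 1.65% after thinning. Cped1 was detected in 4.51%, 5.88%, 5.76% and 5.51%, and in 0.936%, 1.40%, 1.18% and 1.35%. After thinning, wild type was again lowest for each gene, while the order of the other libraries for Cped1 was no longer that of the levels. Thinned wild-type nuclei held only 6 Tacr3, 12 Vegfd and 12 Cped1 UMIs. The thinned log2 ratio was within counting error for Tacr3 of the neuron-labelled library (0.94, -0.59 to 2.64). So was that of Cped1 in each library set against wild type, at 0.64 (-0.39 to 1.75) in the total-labelled one.

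Vegfd is X-linked and the total-labelled library held no female CA1-like nuclei, so levels were also read by sex of the nucleus (Y-linked UMIs without Xist, or Xist without Y-linked UMIs). In CA1, Vegfd was at 3.86 CPM in male and 5.67 CPM in female wild-type nuclei, and at 12 CPM in male nuclei of the total-labelled library. In the astrocyte-labelled library it was at 3.59 CPM in male and 11.2 CPM in female nuclei, and without the Unc5d nuclei at 2.63 and 8.13 CPM. In the neuron-labelled library the sexes were alike, at 6.91 and 6.96 CPM.

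The other genes of the tachykinin and VEGF systems were read in the same CA1 nuclei. Of the tachykinin list, Tacr1, the neurokinin 1 receptor, was at 1.63, 2.33, 2.35 and 2.07 CPM in the wild-type, total-, astrocyte- and neuron-labelled libraries. The peptide genes were nearly absent, with Tac1 at 0.12, 0.27, 0.49 and 0.65 CPM and Tac2 at 0, 0, 0 and 0.13 CPM. Tacr1 was also high in the Unc5d nuclei, at 14.7 CPM against 1.51. Tacr1 and Tacr3 had at least 100 UMIs in CA1, and of these Tacr3, chosen for its ratio, was past 2-fold above wild type in the total- and astrocyte-labelled libraries (0.565% and 0.23% of all genes were), and Tacr1 in none.

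Of the VEGF list, 9 of 10 genes were listed for all libraries and 6 had at least 100 UMIs in CA1. In the total-labelled library Vegfd was past 2-fold above wild type and Vegfa, the main angiogenic ligand, past 2-fold below it, against 0.565% above and 1.21% below over all genes. In the astrocyte- and neuron-labelled libraries none of the 6 was past 2-fold. Vegfa was at 6.51, 3.19, 10.9 and 9.83 CPM, so it was lowest in the total-labelled library. Vegfb was at 9.59, 9.37, 7.48 and 6.66 CPM and Vegfc at 16.2, 20.9, 15.2 and 18.4 CPM. The median log2 ratio of the 6 genes was 0.022, 0.064 and 0.18 in the total-, astrocyte- and neuron-labelled libraries, against -0.041, -0.036 and -0.018 over all 13460 genes. Kdr, a VEGF receptor, had only 3, 18, 31 and 13 UMIs in CA1 and was at 21.2 CPM in the Unc5d nuclei against 0.45 in the other CA1-like nuclei. The co-receptors Nrp1 (415 to 442 CPM) and Nrp2 (53.6 to 60.5 CPM) varied little.

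Genes that lean to one end of CA1 differed between the Unc5d nuclei and the other CA1-like nuclei, a description, since the Unc5d nuclei were set apart on their expression. Of 12907 genes with at least 100 UMIs in these nuclei, 8.45% were at least 2-fold higher in the Unc5d nuclei and 4.9% at least 2-fold lower. All 4 ventral-leaning genes of the list (Dcn, Htr2c, Grp and Etv1) were at least 2-fold higher in the Unc5d nuclei than in the other CA1-like nuclei, summing to 894 CPM against 269. All 3 dorsal-leaning genes (Wfs1, Spink8 and Pou3f1) were at least 2-fold lower, summing to 25.5 CPM against 169. Most of the other CA1-like nuclei lay in the larger CA1-like cluster. Levels of these genes in the rest of the Dcn cluster, to which the Unc5d nuclei belong, are not given here. Etv1 is also on the deep cortical list, and Spink8 is a gate gene. Across the libraries none of these 8 position genes was past 2-fold in CA1, as 1.21% or fewer of all genes were in either direction in a library, so nothing is read from that count. The ventral-leaning genes summed to 344, 414, 320 and 300 CPM in the wild-type, total-, astrocyte- and neuron-labelled libraries, and the dorsal-leaning genes to 173, 174, 171 and 158 CPM. Dcn, the proteoglycan decorin, was at 29.1, 50.7, 47.1 and 27.0 CPM. In the astrocyte-labelled library the ventral-leaning sum, Dcn included, was below wild type, unlike Dcn itself. Calb1, a calcium-binding protein of superficial CA1 cells and also of dentate granule cells, was highest in wild type, at 68.1, 45.2, 39.7 and 47.8 CPM, as were the dentate granule markers (329, 175, 193 and 254 CPM in sum). Dentate granule-like nuclei made up 10.1%, 4.70%, 4.91% and 7.22% of the gated nuclei, and their part in the Calb1 levels was not tested. The gate gene Fibcd1 was at 60.6, 82.3, 74.3 and 74.1 CPM. The part of CA1 position in the differences of Tacr3, Vegfd and Cped1 was not tested.

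Over the 29 excitatory clusters, with UMIs summed over libraries, the 3 genes were only loosely alike. Pearson's r of log2(CPM + 1) was 0.12 between Tacr3 and Vegfd, 0.19 between Tacr3 and Cped1 and 0.42 between Vegfd and Cped1. Of 17139 genes, those most like Tacr3 were 4933427E13Rik (r of 0.79), Dsc3 and Gm9947 (both 0.77), Cldn1 (0.74) and Akap5 (0.71). Those most like Vegfd were Fem1b (0.72), Mrps6 (0.71), Pir (0.70), Esr1 (0.69) and Slc5a3 (0.69), and those most like Cped1 were Gab2 (0.78), Psma1 (0.76), Cda (0.75), Ppp1r13l (0.75) and Usp35 (0.73). The clusters share libraries and differ in depth, and the values describe these clusters only.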

How the data were processed

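Single-nucleus RNA counts of 4 mouse hippocampus libraries were used. The deposited values are UMI counts per gene and barcode, made by the authors with Cell Ranger ARC 2.0.0 on mm10, per the submitters' processing notes; those notes name no annotation release. Barcodes with at least 500 genes and at most 5% mitochondrial UMIs were kept. Doublets called by Scrublet (scanpy 1.11.5, expected rate of 0.8% per 1000 barcodes) were removed. Nuclei were clustered with Leiden (leidenalg 0.10.2, resolution 1, 2000 variable genes, 30 components) without Tacr3, Vegfd, Cped1, Mgll, mitochondrial and sex-linked genes. Excitatory clusters had Slc17a7 or Slc17a6 UMIs in at least 50% of nuclei, summing above Gad1 and Gad2. A cluster was named X-like from at least 3 markers held by at least 10% of its nuclei and at least 2-fold above other nuclei.

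UMIs were summed per library and population and divided by the total UMIs (CPM). Intervals are exact Poisson for levels, Clopper-Pearson for shares and conditional binomial for ratios, at 95%. Each genotype has 1 library, so differences were not tested and no p-value is given. The counting of genes past 2-fold, with 1 UMI added to each sum, was tested on simulated data. Genes named beside the 3 are those of the tachykinin, VEGF and CA1 position lists and, for each member, the 5 genes most alike by Pearson's r over excitatory clusters of at least 50 nuclei. Genes and nuclei that describe the Unc5d nuclei fall outside this rule and were chosen after their values were seen. The 3 genes and the lists were chosen with earlier results of these data known. The gate, filters, scaling, depth, doublets and the Unc5d nuclei were varied.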

Additional observations from a re-analysis of the deposited data

Results flagged for a closer look

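Vegfd in the astrocyte-labelled library went in opposite directions in male and female CA1 nuclei. Set against wild-type nuclei of the same sex, it was lower in males, with a log2 ratio of -0.10 (-0.95 to 0.74), and higher in females, at 0.98 (0.47 to 1.51). The male minus female difference was -1.09. The intervals cover counting error only, the male interval includes 0, and the difference was not tested, since there is 1 library of each genotype and the sources used here do not give how many animals of each sex it held.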

How the results depend on the processing

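For the 9 CA1 ratios, 159 alternative values were computed, of which 149 lay above 0 and 10 below. The genes were chosen on these ratios, and the alternatives share nuclei and the wild-type library, so nothing is read from that count. The values of Tacr3 stayed above 0 under every alternative run, between 0.15 and 2.38 over the 3 libraries. In the neuron-labelled library its main ratio was within counting error (0.39, -0.18 to 0.96). With the 5 nuclei with most UMIs left out, at least 2 gate UMIs, at least 1000 detected genes, other size factors, excitatory nuclei taken one by one, the cluster mix held at wild type, or female nuclei only, no CA1 ratio moved beyond its interval. Vegfd of the neuron-labelled library still came within counting error in some of these. They were at least 2 gate UMIs (-0.052 to 1.13), nuclei taken one by one (-0.059 to 0.87) and female nuclei (-0.34 to 0.93). Cped1 of the neuron-labelled library, with a main interval of 0.01 to 0.82, also came within counting error with the 5 nuclei left out. Over all nuclei of the CA1-like clusters it was within counting error too, at 0.45 (-0.025 to 0.94). Alternatives that concern the Unc5d nuclei, the sub-cluster mix, female nuclei and the Unc5d with Gpc3 count were chosen after seeing the data.

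Without the Unc5d nuclei, the log2 ratio of Tacr3 was 0.81 (total) and 0.78 (astrocyte), that of Vegfd 0.40 (astrocyte) and that of Cped1 0.41 (total) and 0.042 (astrocyte). Without the nuclei counted by Unc5d and Gpc3 UMIs, Tacr3 was at 1.09 (total) and Cped1 at 0.54 (total) and 0.20 (astrocyte). With the Unc5d nuclei and the clusters led by C1qtnf7 and by Gm13986 left out, Tacr3 was at 0.82 and 0.69, Vegfd at 0.87 (total), and Cped1 at 0.12, 0.081 and -0.033 in the total-, astrocyte- and neuron-labelled libraries. In the CA1-like clusters without the Unc5d nuclei, Tacr3 was at 0.78 (total) and Vegfd at 0.93 (total). Cped1 reversed there to -0.22 (-0.75 to 0.32), -0.18 and -0.23, each within counting error. With cluster and sub-cluster mix held at wild type, Tacr3 was at 0.71 and 0.65, Vegfd at 0.72 and 0.31, and Cped1 at 0.069, -0.046 and -0.033. These settings differ from the main one by the nuclei removed or reweighted.

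Leaving out nuclei with more UMIs of other pyramidal marker lists than of the CA1 list removed every Unc5d nucleus and kept 556, 824, 793 and 621 gated nuclei. Tacr3 was then at 1.05 (total, -0.080 to 2.26), 1.02 (astrocyte, -0.072 to 2.21) and 1.21 (neuron, 0.13 to 2.38). Vegfd was at 0.51 (total, -0.20 to 1.23), and Cped1 at -0.56, -0.46 and -0.22. Thus Tacr3 and Vegfd of the total-labelled library and Tacr3 of the astrocyte-labelled library came within counting error. So did Vegfd of the neuron-labelled library (0.31, -0.40 to 1.03) and Cped1 in each library (-1.47 to 0.30 in the total-labelled one). Vegfd of the astrocyte-labelled library did not (0.74, 0.086 to 1.42). In gated nuclei of the CA1-like clusters only, Tacr3 was at 2.19 and 1.83, and over all nuclei of those clusters Vegfd was at 1.26 (astrocyte). Thinned to 2000 UMIs, Tacr3 was at 2.38 (total), and Vegfd at 1.27 (astrocyte) and 1.06 (neuron). In male nuclei only, Vegfd of the astrocyte-labelled library reversed to -0.10. The cause was not tested for these.

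In the other excitatory nuclei, Vegfd of the astrocyte-labelled library was at 0.24 (-0.58 to 1.08) when thinned and at 0.25 (-0.098 to 0.60) in clusters not CA1-like. In male nuclei, Vegfd of the neuron-labelled library was at 1.27 and Tacr3 of the astrocyte-labelled library at 0.040. With doublets kept, Cped1 of the total-labelled library was at 0.46. Genes at least 2-fold above and below wild type in CA1 numbered 76 and 163 (total), 31 and 53 (astrocyte) and 41 and 79 (neuron). With a minimum of 20 UMIs they were 338 and 560, 226 and 379, and 273 and 402. At a fold of 1.5 they were 322 and 797, 219 and 393, and 266 and 606. By Unc5d and Gpc3 UMIs the wild-type share of gated nuclei moved from 0.156% to 0.933%.

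Depth limits the wild-type Unc5d nuclei: in the 5 of them a Vegfd count of 0 has an exact Poisson interval up to 91.6 CPM. No paired analysis was possible because each genotype has 1 library and no replicate numbers. Each library is the whole of its group, so none was left out.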
